A study of Mus musculus with 7 samples.

Results

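The matrix-remodelling proteases of the mouse and their inhibitors were followed in heart muscle with immune checkpoint inhibitor (ICI) myocarditis, an inflammation of the heart that is modelled here by gene deletion. The genes described are every row of the expression table whose symbol starts with Mmp, Adam or Timp and a digit, or with Adamts, which gave 84 of 23420 gene rows. They comprised 23 matrix metalloproteinases (MMPs), 33 ADAMs, 19 ADAMTS proteases, 5 ADAMTS-like (ADAMTSL) proteins and 4 tissue inhibitors of metalloproteinases (TIMPs). RNA came from snap-frozen heart of mice aged 3 to 6 weeks that received no treatment, and was sequenced as total RNA. The labels give the tissue as the whole heart and the extraction protocol as cardiac ventricle. The ICI-myocarditis group (n = 3) was Ctla4+/-;Pdcd1-/- and so had 1 functional copy of Ctla4. The control group (n = 4) was Ctla4+/+;Pdcd1-/-. Both groups therefore lacked Pdcd1, the gene of the checkpoint receptor PD-1, and no animal with intact Pdcd1 was analysed here. The labels name no Cre driver or cell type for either allele.

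MMPs are zinc-dependent proteases, secreted or bound to the cell surface, that are made as inactive precursors and cleave collagens and other matrix proteins. ADAMs are membrane proteases that release the outer part of cell-surface proteins, a step called shedding. ADAMTS proteases are secreted, process procollagens and cleave proteoglycans, and ADAMTSL proteins resemble them but have no protease domain. TIMPs bind the active site of these enzymes and block it. Because precursor activation and TIMP binding act on the proteins, transcript levels do not measure protease activity. In the heart the balance between the enzymes and TIMPs is known for its part in scar formation and chamber dilation after injury.

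Libraries held 20931730 to 39037176 reads assigned to genes. All values below are the deposited normalized read counts, which are read counts divided by a scaling factor for each library, and they are not corrected for gene length unless stated. Cardiomyocyte markers were abundant in all 7 libraries. Control 2 stood apart from the other controls. On the first principal component, which held 68.6% of the variance, it lay between the other controls and the ICI-myocarditis libraries, and its summed T cell marker level of 1158 was the highest of the control range, which began at 96.3. In the ICI-myocarditis libraries that sum was 5464 to 8319. Counts are therefore given with and without control 2.

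Of the 84 genes, 57 had at least 10 normalized reads in at least 3 libraries and were tested with limma. Adam5 and Mmp8 reached 10 but not in 3 libraries, and 25 genes stayed under 10 in every library and are treated as not measured. These 25 comprised 16 ADAMs, most of them known from testis and sperm, 6 MMPs and 3 ADAMTS genes, and 10 of them had no read in any library. At a Benjamini-Hochberg adjusted p under 0.05 over all 15258 genes tested, 11 members were higher in ICI-myocarditis and 1 was lower. That is 19.3% of the tested members higher, against 11.7% of all genes tested, and 1.75% lower, against 4.00%. The median log2 fold change (ICI-myocarditis against control) was 0.18 over the 57 members and -0.02 over all genes tested. Of the 57, 33 had a log2 fold change above 0, or 57.9%, against 48.1% of all genes tested. By family the median was 0.18 for MMPs, 0.03 for ADAMs, 0.29 for ADAMTS proteases, 0.01 for ADAMTSL proteins and 0.32 for TIMPs. The 3 ICI-myocarditis and 4 control libraries did not overlap for 15 members, or 26.3%, against 28.6% of all genes tested. Without control 2 the limma calls were 11 higher and 2 lower, against backgrounds of 14.8% and 7.16%. Without ICI-myocarditis 3, which had the highest value of its group for 9 of the 11 higher members, they fell to 5 higher and 0 lower, against 5.99% and 1.09%, with 5 members on the lower side at an unadjusted p under 0.05. The p-values measure the spread between these animals only.

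Other tools gave partly other counts. edgeR called 11 members higher and 1 lower, against 11.1% and 3.55% of all genes. DESeq2 called 13 higher and 3 lower, against 14.2% and 8.37%. The limma-voom fit with quality weights called 14 higher and 6 lower, against 17.1% and 9.56%. The members Timp1, Adam8, Mmp12, Mmp19 and Mmp25 were called in all 18 alternatives. The other 7 calls were each lost in some alternatives. Scaling by library totals lost Adam12 and Adamts7, and Adamts2 was lost with no filter on low values and with limma without trended, robust variance. A limma fit with the replicate number as a block lost Adam12, Adamts2, Adamts14, Adamts19 and Mmp23. Mmp14 was lost without control 3 or ICI-myocarditis 3, and Mmp23 without ICI-myocarditis 1 or 3. Adamts14 was lost without control 1, control 3, ICI-myocarditis 2 or 3, Adamts19 without control 3 or any of the ICI-myocarditis libraries, and Adamts7 without control 1, control 3, ICI-myocarditis 1 or 3. Adam12 was lost without control 1, 3 or 4 or ICI-myocarditis 2 or 3, and Adamts2 without control 2, 3 or 4 or ICI-myocarditis 2 or 3. With 1 library left out their log2 values ranged over 1.41 to 2.38 for Mmp14, 0.87 to 1.06 for Mmp23, 1.14 to 1.62 for Adamts14, 1.09 to 1.35 for Adamts19, 1.47 to 2.26 for Adam12, 0.91 to 1.58 for Adamts2 and -1.39 to -0.81 for Adamts7. Their highest limma adjusted p in these fits was 0.0613 for Mmp14, 0.0751 for Mmp23, 0.108 for Adamts14, 0.108 for Adamts19, 0.166 for Adam12, 0.183 for Adamts2 and 0.0749 for Adamts7.

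**Figure D1:**
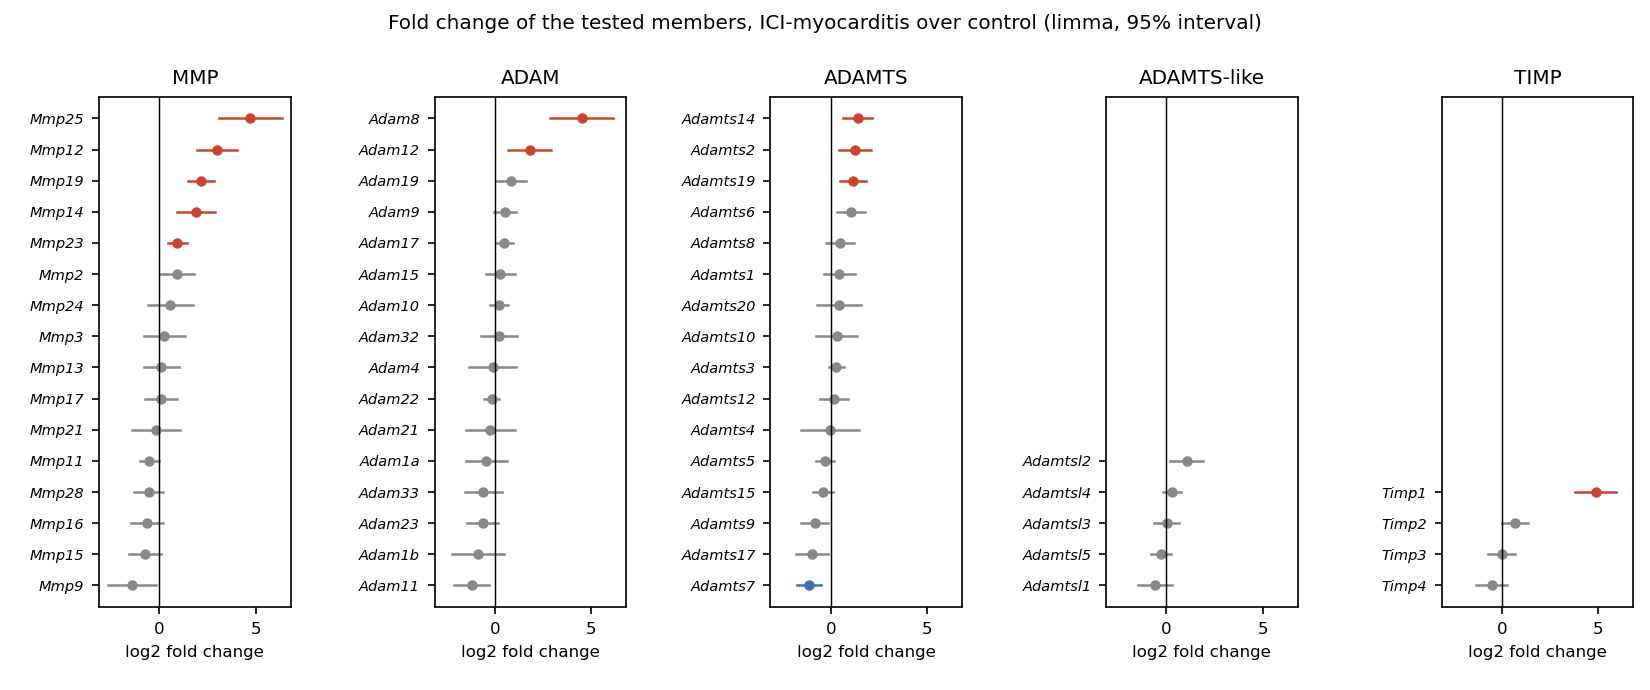
Log2 fold change of each tested member with its 95% interval from limma, ordered within family, on the log2(normalized reads + 1) scale; red marks members called higher, blue lower and grey not called. Timp1, Mmp25 and Adam8 lie furthest to the right, between 4.49 and 4.87, and Adamts7 is the called member on the left at -1.14.

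Of the 4 inhibitors, 1 was called by limma. Timp1, a secreted inhibitor made by fibroblasts and macrophages among other cells, had the largest limma log2 fold change of the tested members. It was measured at 45.4, 244, 83.7 and 87.6 normalized reads in controls 1 to 4 and at 2387, 2639 and 3504 in ICI-myocarditis 1 to 3. The lowest ICI-myocarditis value was thus far above the highest control, control 2. The log2 fold change was 4.87 (SE 0.476, limma adjusted p = 0.00251), and the ratio of the group means was 24.7. By ratio of the group means Mmp25 ranked above Timp1, at 25.5. Timp2, which also takes part in activating pro-MMP2 on the cell surface, was 5178, 2349, 3658 and 3548 in controls and 4401, 5789 and 6995 in ICI-myocarditis. The groups overlapped and the log2 difference of 0.67 did not pass (limma adjusted p = 0.163). Timp3, the inhibitor held in the matrix, was 17213, 13710, 12702 and 8727 against 10452, 10444 and 17940. Its estimate was -0.02 (limma adjusted p = 0.972; 95% interval -0.74 to 0.69), and its sign turned to 0.14 under scaling by library totals. Timp4, known as the inhibitor most characteristic of heart muscle, was 2244, 1701, 878 and 1624 against 1568, 707 and 1058, with overlapping groups (log2 -0.53, limma adjusted p = 0.358).

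Per kilobase of merged exon, the scale on which different genes can be compared, the level of Timp1 was 130 ± 99.2 (SD, n = 4) in controls and 3202 ± 660 (SD, n = 3) in ICI-myocarditis. Timp3 stood at 2772 ± 739 and 2742 ± 916. Timp1 thereby moved from rank 22 to rank 1 among the members ordered by this level, and Timp3 from rank 1 to rank 2. As a share of the summed per-kilobase level of the 4 TIMPs, Timp1 made up 3.29% ± 2.45 in controls and 41.9% ± 1.57 in ICI-myocarditis, while Timp3 made up 66.0% ± 5.55 and 35.3% ± 3.27. These shares are descriptive, since a share of a sum falls for one gene when another rises.

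**Figure D2:**
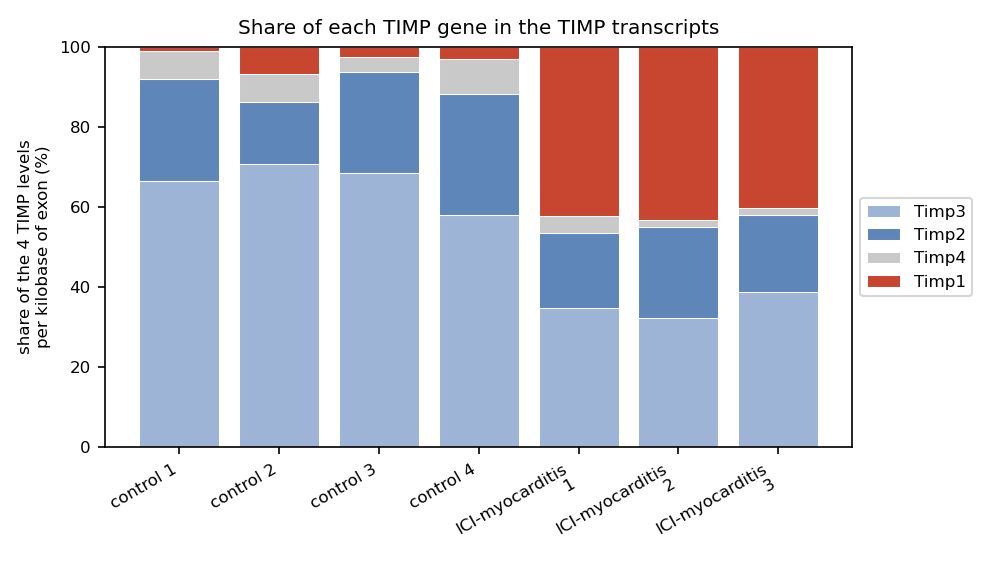
Share of each of the 4 TIMP genes in their summed per-kilobase level, in percent, for each of the 7 libraries. The Timp1 share is 0.933 to 6.71% in the 4 controls and 40.2 to 43.3% in the 3 ICI-myocarditis libraries.

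Timp1 lies at X:20870166-20874735 on the plus strand (GRCm38, GENCODE M21), within the span of Syn1 on the other strand. Syn1 was low, at a mean of 30.8 in controls and 52.6 in ICI-myocarditis, and was not called by limma. The 120 bases before the RefSeq start of Timp1 (GRCm38.p6, chrX:20870046-20870165, plus strand) are shown because Timp1 had the largest limma log2 fold change. No capitals appear, since none of the 3 motifs searched was found in it:

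Timp1: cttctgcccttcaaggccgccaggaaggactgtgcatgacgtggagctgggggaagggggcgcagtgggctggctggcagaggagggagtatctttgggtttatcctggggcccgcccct

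The 2 gelatinases, which cleave denatured collagen and basement membrane, were not called by limma, edgeR or DESeq2, although both had an unadjusted limma p under 0.05. Mmp2 was 4350, 1845, 2884 and 2024 in controls and 2881, 4970 and 8211 in ICI-myocarditis (log2 0.90, limma adjusted p = 0.165). Control 1 exceeded ICI-myocarditis 1. Mmp9, the gelatinase of neutrophils and macrophages, had few reads: 21.2, 40.7, 46.9 and 37.5 in controls and 13.3, 5.07 and 26.0 in ICI-myocarditis. The difference pointed down (log2 -1.44, limma adjusted p = 0.113), with ICI-myocarditis 3 above control 1, and limma-voom with quality weights was the alternative that called it.

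The genome holds 10 MMP genes side by side on chromosome 9, between 7272514 and 7699585 (427 kb, GRCm38), including the collagenases, the stromelysin Mmp3 and the macrophage metalloelastase Mmp12. Of these, 3 were tested and 1 was called, and 6 were not measured. Mmp12, a macrophage enzyme that degrades elastin, had 6.05, 13.6, 14.5 and 11.3 normalized reads in controls and 56.3, 94.9 and 153 in ICI-myocarditis. The groups were separate at a low level (log2 3.00, SE 0.466, limma adjusted p = 0.00468). Mmp13, the main collagenase of the mouse, was 33.3, 55.5, 93.8 and 36.3 against 54.2, 50.7 and 55.8 (log2 0.09, limma adjusted p = 0.909, 95% interval -0.82 to 1.002). Mmp3 was 29.2, 64.1, 43.5 and 67.6 against 68.6, 30.4 and 94.7 (log2 0.26, limma adjusted p = 0.760). Both overlapped between groups, and the sign of each turned under some alternatives. Mmp8, the neutrophil collagenase, had 1.008, 1.23, 3.35 and 1.25 reads in controls and 2.05, 2.90 and 13.8 in ICI-myocarditis, and was not tested.

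Promoters of the 3 tested genes of this cluster are shown because each holds the same motif close to a start, while 1 of the 3 was called. AP-1, the factor family of Fos and Jun, binds TGANTCA. These letters, read on both strands, occurred in the 250 bases before a RefSeq start in 12 of the 53 members with a window, or 22.6%, and in 7.82% of all 27025 genes with a window. Most of these 12 members lie in this chromosome 9 cluster, and 4 of the 12 were tested while the rest were not measured. Of the 8 members called higher that had a window, 1 held the AP-1 letters. A match is a description of letters, not of binding. Capitals mark the AP-1 letters in the 120 bases before the start of Mmp12 (chr9:7347254-7347373, its downstream start, which lies in an intron of transcripts from its upstream start), Mmp3 (chr9:7445702-7445821) and Mmp13 (chr9:7272394-7272513), all plus strand, RefSeq, GRCm38.p6:

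Mmp12: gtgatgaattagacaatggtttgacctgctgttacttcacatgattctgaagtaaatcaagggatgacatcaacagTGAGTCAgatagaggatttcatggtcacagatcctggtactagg
Mmp3: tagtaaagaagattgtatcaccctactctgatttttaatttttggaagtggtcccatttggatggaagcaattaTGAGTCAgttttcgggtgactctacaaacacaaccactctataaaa
Mmp13: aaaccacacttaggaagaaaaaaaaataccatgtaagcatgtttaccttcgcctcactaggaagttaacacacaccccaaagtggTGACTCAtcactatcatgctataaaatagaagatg

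The same windows were searched for TTCNNNGAA, the STAT binding element, and for the interferon response element, GAAA followed after 2 bases by GAAA again, on both strands. Counted by gene, the former occurred in 3 and the latter in 1 of the 53 members. Counted by window, which is a different unit because a gene can have several, they occurred in 7.02% and 2.98% of all 32851 windows. Of the 8 members called higher that had a window, Mmp23 held the STAT letters and none held the interferon letters. The Mmp23 match lies before its downstream start, which is inside the annotated gene. The window before its upstream start held no match.

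The membrane-type MMPs, which act at the cell surface, had 3 of 7 tested members called higher and none lower by limma, edgeR or DESeq2, which also gave none lower at an unadjusted p under 0.05. Mmp25, a membrane-anchored MMP known from leukocytes, had 23.2, 24.7, 15.6 and 2.50 reads in controls and 191, 341 and 729 in ICI-myocarditis. The log2 fold change was 4.72 (SE 0.733, limma adjusted p = 0.00468), with a gap between the groups. Mmp14, which activates pro-MMP2 and cleaves fibrillar collagen, was 962, 780, 559 and 442 against 1302, 2327 and 5045. The groups did not overlap, but ICI-myocarditis 3 was more than the sum of the other ICI-myocarditis values (log2 1.92, SE 0.438, limma adjusted p = 0.0188), and without it the log2 value was 1.41 (limma adjusted p = 0.0536). Mmp23, a membrane-bound MMP without the usual hemopexin domain, was 221, 275, 277 and 211 against 512, 394 and 509 (log2 0.94, SE 0.212, limma adjusted p = 0.0176). All 3 ICI-myocarditis values exceeded all controls, with little spread within either group. Mmp15, Mmp16, Mmp17 and Mmp24 had overlapping groups and were not called by limma, with log2 values of -0.76 to 0.57, while limma-voom called Mmp16 lower.

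Among the other secreted MMPs, Mmp19, which cleaves basement membrane proteins, was 130, 123, 119 and 96.3 in controls and 355, 473 and 856 in ICI-myocarditis. The controls were tightly grouped and every ICI-myocarditis value was well above them (log2 2.16, SE 0.310, limma adjusted p = 0.00397). Its exons overlap Tmem198b on the other strand by 789 bases, whose mean went from 186 to 248 and was not called by limma. Mmp11, or stromelysin-3, was lower without overlap, at 226, 184, 211 and 199 against 136, 159 and 132, but did not pass (log2 -0.52, limma adjusted p = 0.141).

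The positions of the called members other than Adamts19, which is not listed here, lie on several chromosomes (GENCODE M21, GRCm38). Mmp25 spans 17:23628311-23645277 (minus strand), Mmp14 14:54431612-54445364 (plus), Mmp19 10:128790910-128800824 (plus), Mmp23 4:155650655-155653384 (minus) and Mmp12 9:7344381-7369499 (plus). Adam8 spans 7:139978932-139992562 (minus) and Adam12 7:133883199-134232146 (minus). Adamts2 spans 11:50602084-50807573 (plus), Adamts14 10:61197112-61273438 (minus) and Adamts7 9:90163069-90208071 (plus). Exons of 4 called members, Mmp19, Mmp12, Adamts7 and Adam8, overlap exons of a gene on the other strand. For Mmp12 the overlap is 157 bases with Mmp1b, which was not measured, and for Adamts7 it is 122 bases with Tbc1d2b, whose mean went from 1212 to 2120 and was not called by limma. For Adam8 it is 46 bases with Gm16201, and Mmp19 has a further 212 bases with Gm47093, neither of them analysed here. As the use of strand in counting is not given in the sources used here, reads in such overlaps cannot be told apart.

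**Figure D3:**
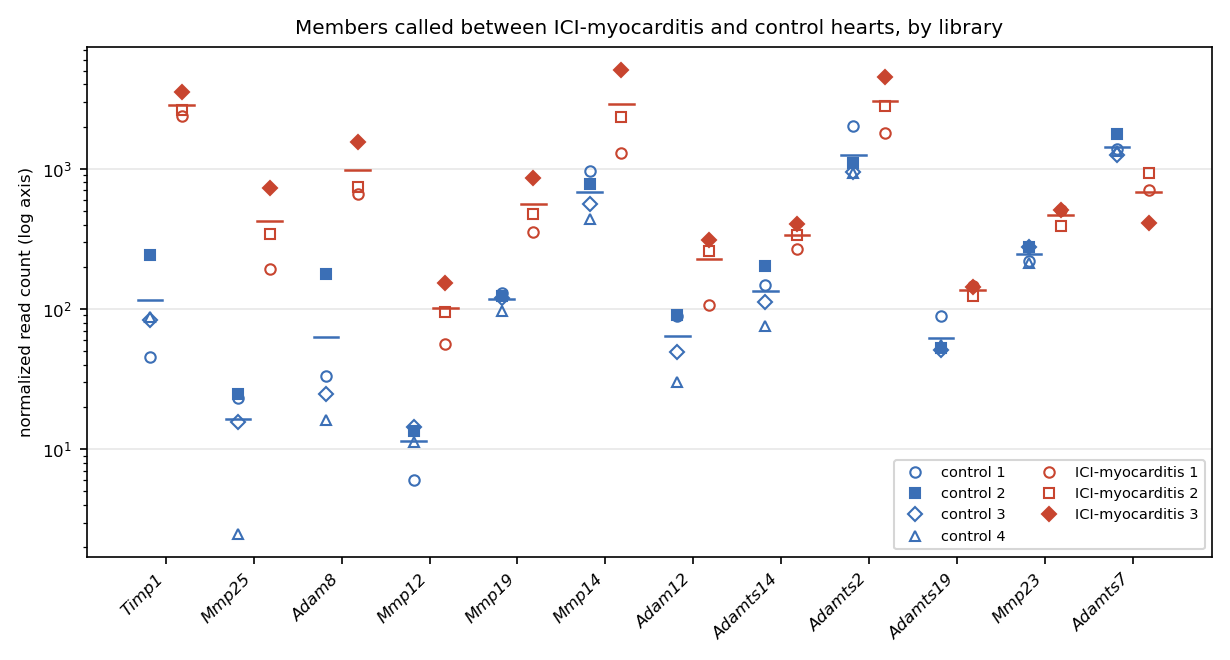
Normalized reads of the 12 called members in each library on a log axis; controls are blue, ICI-myocarditis red, and short lines are group means. For 11 genes the ICI-myocarditis mean lies higher, for Adamts7 it lies lower, and for Adamts2 the groups overlap because control 1 (2028) exceeds ICI-myocarditis 1 (1792).

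Of 8 tested ADAMs with a somatic protease role, 2 were called higher by limma, edgeR and DESeq2, and limma-voom called 4, adding Adam17 and Adam19. Adam8, a sheddase of leukocytes, was 33.3, 178, 24.6 and 16.3 in controls and 661, 744 and 1540 in ICI-myocarditis. Control 2 was the highest control by far and still lay below every ICI-myocarditis value (log2 4.49, SE 0.718, limma adjusted p = 0.00514; 5.21 without control 2). Adam12, a protease of mesenchymal cells, was 88.7, 90.1, 49.1 and 30.0 against 106, 261 and 310. The gap between control 2 and ICI-myocarditis 1 was small (log2 1.79, SE 0.497, limma adjusted p = 0.0399). The general sheddases Adam17 and Adam10 were not called by limma, edgeR or DESeq2. Adam17, which releases TNF, was 2049, 1969, 1836 and 1714 against 2222, 2614 and 3183, without overlap (log2 0.49, limma adjusted p = 0.118). Adam10, which sheds Notch receptors and cadherins, was 2752, 3459, 3823 and 2779 against 3416, 3531 and 4081, with overlap (log2 0.21, limma adjusted p = 0.540).

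The 3 tested somatic ADAMs that lack a catalytic site had estimates below 0 and none was called by limma or edgeR, although 1 had an unadjusted limma p under 0.05, DESeq2 called Adam11 and limma-voom called Adam23. Adam11 was 612, 354, 401 and 692 in controls and 219, 380 and 116 in ICI-myocarditis (log2 -1.21, limma adjusted p = 0.0737). ICI-myocarditis 2 exceeded control 2. The 5 tested ADAMs of mainly reproductive expression were at 5.005 to 216 normalized reads and none was called by limma, edgeR or DESeq2, with 0 at an unadjusted p under 0.05 in any of the 3.

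Among the ADAMTS proteases, 2 of 3 procollagen N-propeptidases, which trim newly made fibrillar procollagen, were called higher by limma. Adamts2 was 2028, 1099, 942 and 938 in controls and 1792, 2783 and 4523 in ICI-myocarditis (log2 1.25, SE 0.364, limma adjusted p = 0.0470). Control 1 lay above ICI-myocarditis 1, so the groups overlapped. Adamts14 was 147, 202, 112 and 75.1 against 269, 335 and 401, without overlap (log2 1.39, SE 0.344, limma adjusted p = 0.0260). The related Adamts3 was 378, 451, 440 and 434 against 518, 513 and 516, without overlap, and did not pass (log2 0.28, limma adjusted p = 0.3195).

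Adamts19, a secreted ADAMTS protease with few known substrates, was 88.7, 53.0, 51.4 and 55.1 in controls and 145, 123 and 144 in ICI-myocarditis (log2 1.17, SE 0.298, limma adjusted p = 0.0283). Adamts6, not called by limma or edgeR but called higher by DESeq2 and limma-voom, was 269, 606, 356 and 245 against 590, 689 and 879 (log2 1.04, limma adjusted p = 0.0580). Control 2 was its highest control and exceeded ICI-myocarditis 1, and limma called Adamts6 higher without control 2. The 7 proteoglycanases, enzymes that cleave versican and aggrecan, had no call by limma or edgeR, 1 unadjusted limma p under 0.05, 1 DESeq2 call, of Adamts9, and 2 limma-voom calls, of Adamts5 and Adamts9, all of them lower. Adamts1 was 4002, 2554, 1464 and 2223 against 2818, 2489 and 4970 (log2 0.44, limma adjusted p = 0.457). Adamts5 was 2913, 2075, 3108 and 2205 against 2147, 1765 and 2334 (log2 -0.29, limma adjusted p = 0.401). Both overlapped between groups. Adamts4 was 87.7, 131, 27.9 and 30.0 against 25.6, 58.0 and 107, and its sign turned under several alternatives (log2 -0.04, limma adjusted p = 0.976).

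Adamts7, which cleaves the matrix protein COMP and is expressed by vascular smooth muscle, was the only tested member called lower by limma. It was 1385, 1769, 1250 and 1336 in controls and 707, 925 and 413 in ICI-myocarditis, without overlap (log2 -1.14, SE 0.278, limma adjusted p = 0.0247). Scaling by library totals moved the median of all genes by 0.16 and gave -0.98 for Adamts7, which then missed the threshold (limma adjusted p = 0.0719). Adamts13, which cleaves von Willebrand factor, was not measured. The 5 ADAMTSL genes had no call by limma or edgeR, with 1 unadjusted limma p under 0.05. That gene, Adamtsl2, was 1409, 819, 542 and 716 against 1508, 1149 and 2832 (log2 1.05, limma adjusted p = 0.0942), and DESeq2 called it while limma-voom did not.

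The 45 uncalled tested members had log2 values of -1.44 to 1.05, and 11 of them had an unadjusted limma p under 0.05. Called members included, 23 of the 57 had an unadjusted limma p under 0.05, against 4598 of 15258 genes tested, or 30.1%. The authors' deposited table carries their own fold changes and adjusted p-values, with an adjusted p for 63 members and 16882 genes. Of these 63 members, 13 were higher and 3 lower under an adjusted p of 0.05, with backgrounds of 12.9% and 7.35%. All 12 limma calls were among them, and the remaining 4 in the authors' deposited table were Adamts6 (adjusted p = 0.0402) and Adamtsl2 (0.0491), both higher, and Adam11 (0.0455) and Adamts9 (0.0413), both lower.

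Genes that act on these enzymes, and their substrates, were examined next, against 11.7% of all genes called higher and 4.00% lower by limma. The lists were chosen with earlier results of these data known, so this comparison is descriptive. Of 25 tested regulators, 5 were higher and 0 lower in limma, with a median log2 value of 0.35. On the lower side, 2 had an unadjusted limma p under 0.05, and edgeR called 1, DESeq2 2 and limma-voom 3. The 2 with the lowest p were Tspan33, a tetraspanin that assists ADAM10, at 2.33 (limma adjusted p = 0.00376) and Cd82, a membrane tetraspanin, at 1.56 (limma adjusted p = 0.00959). Reck, a membrane-bound MMP inhibitor, was -0.16 (limma adjusted p = 0.675), and Rhbdf2, which brings ADAM17 to the surface, was 0.59 (limma adjusted p = 0.265).

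Among 27 tested sheddase substrates, 12 were higher and 2 lower in limma, with a median log2 value of 0.94. The adhesion receptor Cd44 was 2.52 (limma adjusted p = 0.00251) and the chemokine Cxcl16 was 2.57 (limma adjusted p = 0.00365). Among 21 tested matrix substrates, 8 were higher and 1 lower, with a median of 0.66. Periostin (Postn), a matrix protein of activated fibroblasts, was 2.96 and tenascin-C (Tnc) 5.15, both with limma adjusted p = 0.00251. Versican (Vcan), the ADAMTS proteoglycanase substrate, was 1.55 (limma adjusted p = 0.00373), while Vwf, the substrate of ADAMTS13, was 0.16 (limma adjusted p = 0.761).

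Cell-type markers were read in the same libraries. In bulk tissue, more or fewer cells of a type and more or less RNA per cell cannot be told apart. All 6 tested macrophage markers were called higher, and their summed level was 10710 to 14970 in controls and 41670 to 63560 in ICI-myocarditis. All 5 tested T cell markers were higher. Of the neutrophil markers, S100a8 and S100a9 alone were tested and neither was called by limma, edgeR, DESeq2 or limma-voom, with 0 at an unadjusted p under 0.05, at a summed level for the list of 10.1 to 98.8 in controls and 21.7 to 61.1 in ICI-myocarditis. These values stand beside Mmp12, Adam8 and Mmp25, genes known from leukocytes, and their part in those results was not tested.

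Of the 7 fibroblast markers, Col1a1 and Col1a2 were called higher by limma, DESeq2 called 3, and the list summed to 37640 to 54110 in controls and 68020 to 127300 in ICI-myocarditis. Most of the rise in this sum came from Col1a1 and Col1a2, which were also counted among the matrix substrates. From controls to ICI-myocarditis the mean went from 11467 to 41072 for Col1a1 and from 11409 to 35583 for Col1a2. The other 5 fibroblast markers were not called by limma, and the mean of Dcn was 14281 and 14824. Pdgfra, a defining fibroblast receptor, was 0.27 on the log2 scale (limma adjusted p = 0.574). These values stand beside Mmp14, Adam12, Adamts2, Adamts14 and Timp1, and their part in those results was not tested. Of the 6 mural markers, which mark pericytes and smooth muscle, 4 were lower by limma, with sums of 48340 to 63800 and 21340 to 28390. Of the 6 endothelial markers 3 were lower by limma and edgeR and all 6 by DESeq2 and limma-voom, with 6 at an unadjusted limma p under 0.05 and sums of 26740 to 66540 and 17300 to 24980. These stand beside Adamts7, and their part in that result was not tested. No cardiomyocyte marker of 7 was called by limma or edgeR, with 2 at an unadjusted limma p under 0.05, and DESeq2 called 3 lower and limma-voom 1. Their sum was 1110000 to 2022000 in controls and 697700 to 1164000 in ICI-myocarditis.

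**Figure D4:**
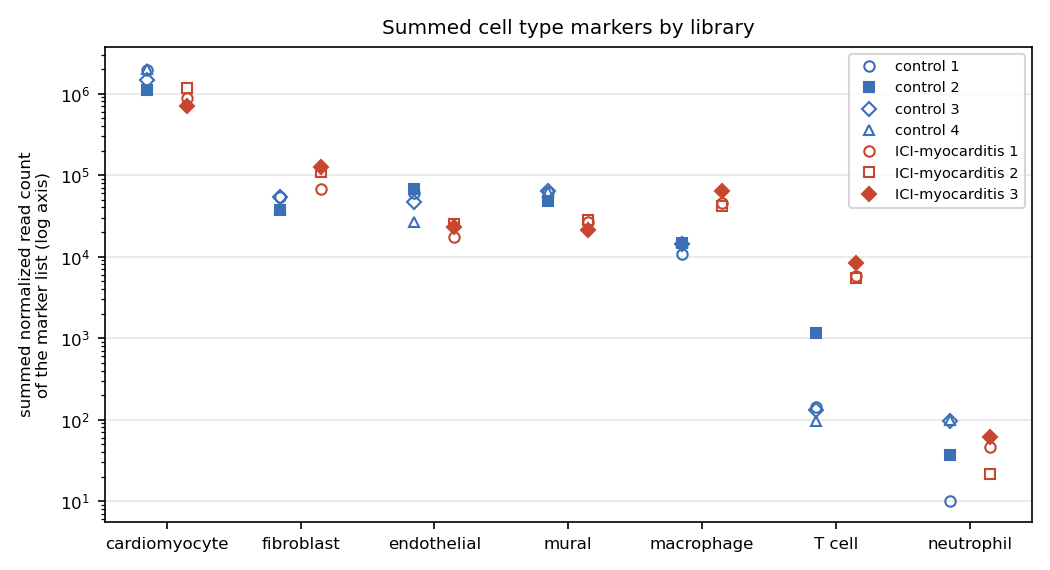
Summed normalized reads of each cell-type marker list in each library on a log axis. The macrophage and T cell sums of the 3 ICI-myocarditis libraries lie above all controls, the mural and endothelial sums lie below all controls, and the neutrophil sums overlap.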

How the data were processed

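Heart RNA libraries (4 control, 3 ICI-myocarditis) were compared. The authors deposited 1 table of normalized signal per gene, read counts divided by library size factors, with their log2 fold changes, p-values and test statistic, a score deposited per gene. The factors equalled DESeq2 median-ratio factors, and whole reads were recovered for 100% of values (tolerance 0.05). STAR 2.7.3 and GRCm38 are named in the submitters' processing notes, without roles; the counter, annotation and use of strand are not given in the sources used here.

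limma 3.58.1 (R 4.3.3) was fitted to log2(value + 1) with trended, robust variance for 15258 genes with at least 10 in at least 3 libraries, with Benjamini-Hochberg adjustment over all of them. Fold changes on this scale understate changes of low genes. Alternatives used other pseudocounts, filters and scalings, edgeR 4.0.16 and DESeq2 1.42.0 on recovered reads, a replicate block, and each library left out. Every called member, a fixed set of others, and uncalled members beyond 1 on the log2 scale are named; Adamts3, Adamts9, Adam19, Adam23, Mmp11, Mmp16 and genes overlapping called members were chosen after their values were seen. The members and lists were chosen with earlier results of these data known.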

Additional observations from a re-analysis of the deposited data

Results flagged for a closer look

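Among the 57 tested members, the 4 controls were examined on the log2(value + 1) scale for a library far from the rest. On that scale 2 of the 57 members had one. Chance gives about 1 in 20, so this count is no more than chance gives. For Adamts19, control 1 lay on the high side, and its gap to the nearest control was 0.874 of the range of the controls. Without control 1 the log2 fold change of Adamts19 was 1.35 (limma adjusted p = 0.0270). For Adamts20, a proteoglycanase that was not called, control 4 lay on the low side, with a gap of 0.859 of the range.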

How the results depend on the processing

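Of the 18 alternatives, all kept Timp1, Adam8, Mmp12, Mmp19 and Mmp25 higher. Members called higher numbered 11, fell to 6 under the replicate block (9.13% of all genes), and ranged from 5 to 11 with 1 library left out. Members called lower numbered 1, and were 0 under scaling by library total, 6 with limma-voom, 3 with DESeq2, 2 under the replicate block (2.48% of all genes), and 0 to 2 with 1 library left out. Regulators and partners called numbered 28, and 17 to 30 with 1 library left out (17 without control 3, 18 without ICI-myocarditis 2 and 18 without ICI-myocarditis 3, where 8.52%, 10.1% and 7.08% of all genes were called, against 2397 of 15258 genes with every library). Numbers did not pair the samples, with same-number correlations of -0.27, -0.21 and -0.08, and no sample correlated best with its own number.

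Signs turned for 5 uncalled genes; the cause was not tested. Adamts4 (-0.04) gave 0.11 by library total, 0.32 by limma-voom and -0.52 to 0.49 with 1 library left out. Mmp13 (0.09) gave -0.26 by limma-voom, -0.0305 by edgeR, -0.0306 by DESeq2, -0.0596 under the block and -0.10 to 0.39 with 1 library left out. Mmp3 (0.26) gave -0.19 by limma-voom and -0.0829 to 0.72. Timp3 (-0.02) gave 0.14 by library total and -0.28 to 0.12. Vwf (0.16) gave -0.10 by limma-voom and -0.00109 to 0.29.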
